A study of Mus musculus with 12 samples.

Results

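Control embryoid bodies were compared 12 hours apart, on day 2.5 against day 2 of differentiation, with 3 libraries at each time, 6 of the 12 libraries in the series. Embryoid bodies are the floating aggregates in which embryonic stem cells begin to differentiate. The libraries were chosen by their labels, which call their genotype wildtype, and no measured value entered the choice. Per the labels, the lines were derived from outbred embryos homozygous for a floxed Trim33 allele (Trim33-flox) and carrying the UbcCreERT2 transgene, so controls share both alleles as far as the labels say. UbcCreERT2 is a tamoxifen-dependent Cre recombinase driven by the ubiquitin C promoter, which is active in most cell types. The lines, at passages 8 to 10, were kept without feeders in LIF and 2i, the cytokine and inhibitor pair that hold stem cells in the naive state, and were aggregated on low-attachment dishes. In the other 6 libraries 4OH-Tamoxifen, given on day 1, had started the loss of Trim33. The sources used here do not state whether controls received it or how many lines or clones were used, and they mention 3 independent pairs. The p-values therefore reflect spread among these libraries alone, part of which may be technical.

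Embryonic stem cells in LIF and 2i resemble the naive epiblast of the embryo before implantation and are held there by a network of transcription factors that includes Esrrb, Klf2, Tfcp2l1 and Nanog. When the inhibitors and LIF are withdrawn, this network is taken apart, FGF and ERK signalling drive the cells through a formative and then a primed state, and de novo DNA methylation is established. Primed cells can then respond to Wnt, Nodal and BMP signals with the genes of the primitive streak, the source of mesoderm and definitive endoderm.

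Over the 12 hours, a group of naive pluripotency genes, Nr0b1 and Esrrb among them, fell, while Nanog rose and Pou5f1 (Oct4) narrowly missed the threshold. Fgf8 and T, which mark the earliest streak, rose from low levels. Genes of the integrated stress response and of cholesterol synthesis fell, and members of the BMP and Wnt pathways and of the extracellular matrix rose. In all, 14356 genes were tested and 16.1% of them changed, with 1177 higher (8.2%) and 1136 lower (7.91%) on day 2.5, by edgeR's quasi-likelihood test at a Benjamini-Hochberg adjusted p under 0.05. Most changes were small: the median size among the genes called was 0.437 on the log2 scale, 143 genes rose and 154 fell by more than 2-fold, and the median change of all genes tested was -0.0025. Groups did not overlap for 2324 genes that were higher and 2152 that were lower, 31.2% of those tested, against the 16.1% called. The number of calls depended on single libraries: without day 2 control replicate 3, 606 genes rose, 629 fell and 89 rose by more than 2-fold, and without day 2.5 control replicate 3, 740 rose and 694 fell.

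The 6 libraries held 12510528 to 15479874 counts assigned to genes, so that 3 counts, taken as the floor, equal 0.189 to 0.267 CPM (counts relative to each library's TMM-scaled total). Trim33, the gene deleted in the other arm, was at 275, 261 and 277 CPM in the control libraries on day 2 and at 264, 247 and 239 CPM on day 2.5, against 54.4 to 69.6 CPM in the 6 Trim33-deficient libraries. Day 2.5 control replicate 2 stood apart, with 11.95% of its counts in the ribosomal RNA precursor Rn45s against 0.609 to 1.04% in the other 5 control libraries, and its histone genes lay 0.764 above their mean over the 6 libraries on the log2 scale. Both control libraries numbered 2 were high in hypoxia and glycolysis genes, by 0.494 on day 2 and 0.312 on day 2.5, where the other 4 lay at -0.322 to -0.098. The first principal component, with 44.7% of the variance, separated the days and the second, with 28.0%, separated both libraries numbered 2 from the rest. Since these are bulk samples, fewer cells of a type and less RNA per cell cannot be told apart.

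The upstream sequences of 4 genes on which the comparison turns are shown, each the 250 bases before an annotated start in RefSeq (GRCm38.p6), all on the plus strand. Esrrb and Nr0b1 fell, Nanog went against its group and T rose. Capitals mark matches, on either strand, to CACCC (bound by KLF factors), AACAAT (SOX factors), AAGGTCA (Esrrb), ATGCAAAT (the octamer of Pou5f1), TTCCNGGAA (STAT factors) and AGGTGTGA (T-box factors). None of these motifs overlapped another in the windows shown.
Esrrb, chr12:86360867-86361116: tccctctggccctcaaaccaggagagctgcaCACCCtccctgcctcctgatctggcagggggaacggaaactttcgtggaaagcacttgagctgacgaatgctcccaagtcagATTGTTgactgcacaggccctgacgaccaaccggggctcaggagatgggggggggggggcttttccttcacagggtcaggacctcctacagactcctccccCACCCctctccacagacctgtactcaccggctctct
Nr0b1, chrX:86191525-86191774: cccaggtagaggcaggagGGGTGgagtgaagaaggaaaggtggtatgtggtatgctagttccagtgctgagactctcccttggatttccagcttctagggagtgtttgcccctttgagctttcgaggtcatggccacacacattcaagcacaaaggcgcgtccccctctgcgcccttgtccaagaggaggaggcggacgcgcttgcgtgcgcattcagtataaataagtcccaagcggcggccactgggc
Nanog, chr6:122707315-122707564: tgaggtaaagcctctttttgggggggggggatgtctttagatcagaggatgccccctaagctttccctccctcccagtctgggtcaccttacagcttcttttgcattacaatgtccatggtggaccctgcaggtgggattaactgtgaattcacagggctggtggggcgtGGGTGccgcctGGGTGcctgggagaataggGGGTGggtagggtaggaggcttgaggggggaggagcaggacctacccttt
T, chr17:8434173-8434422: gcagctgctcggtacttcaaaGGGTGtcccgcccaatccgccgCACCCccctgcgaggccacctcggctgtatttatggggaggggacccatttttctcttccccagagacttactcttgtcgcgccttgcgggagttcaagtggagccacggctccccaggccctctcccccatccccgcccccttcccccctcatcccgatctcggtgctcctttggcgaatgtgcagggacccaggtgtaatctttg
Esrrb held 2 CACCC matches and 1 AACAAT match, Nr0b1 1 CACCC match, Nanog 3 and T 2. The table gives Esrrb and Nanog another start each, not shown, with 1 CACCC match for Esrrb and no match for Nanog. CACCC is common: 52.0% of the 32851 promoters of this length held it, beside 9.42% for AACAAT, 4.08% for AAGGTCA, 1.6% for ATGCAAAT, 0.913% for TTCCNGGAA and 1.12% for AGGTGTGA. Among list members with an entry, 10 of 20 windows of naive genes (14 of 25 genes matched), 10 of 21 of primed genes (12 of 17) and 14 of 23 of streak genes (20 of 28) held CACCC, or 50.0%, 47.6% and 60.9%. The list counts leave out any entry on 1 chromosome, a step not applied to the shares over all promoters. A match is a description of the letters only.

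Of 25 naive pluripotency genes, all of which were tested, 10 fell, 2 rose and 13 did not pass, with a median log2 fold change of -0.51 and 22 of 25 estimates below 0. The share that fell is read against 7.91% of all genes tested. Nr0b1 (Dax1), a nuclear receptor that partners Esrrb, was at 16.7, 14.2 and 18.4 CPM in replicates 1 to 3 on day 2 and at 8.73, 5.95 and 6.61 CPM on day 2.5, the order of replicates used throughout. Every day 2.5 library lay below every day 2 library, and the log2 fold change was -1.20 ± 0.18 (SE, n = 3 a group, edgeR adjusted p = 0.000684). Esrrb, an orphan nuclear receptor at the centre of the naive network, went from 45.9, 53.3 and 49.8 CPM to 26.8, 30.5 and 26.8 CPM, with a log2 fold change of -0.83 ± 0.15 and no overlap between the days (edgeR adjusted p = 0.00445). Its fitted level on day 2.5 was 56.2% of that on day 2. Fgf4, the ligand through which naive cells activate ERK in one another, had 273, 289 and 310 CPM on day 2 and 198, 199 and 209 CPM on day 2.5. Its log2 fold change was -0.53 ± 0.06, a small but tight difference with groups that did not overlap (edgeR adjusted p = 5.83e-05).

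Genes expressed in naive cells outside the core network fell too. Dppa5a (Esg1), an RNA-binding protein of pluripotent cells, went from 131, 168 and 150 CPM to 72.2, 86.8 and 88.9 CPM, and Dppa4, a chromatin protein, from 95.8, 95.3 and 104 to 68, 64.1 and 75.5 CPM. Pecam1, a surface protein of naive cells and of endothelium, went from 55.6, 71 and 61.5 CPM to 29.8, 36.5 and 35 CPM. In all of these the day 2.5 libraries lay below the day 2 libraries, with log2 fold changes of -0.86 ± 0.12, -0.51 ± 0.07 and -0.90 ± 0.15 (n = 3 a group, edgeR adjusted p = 0.000732, 0.000173 and 0.00255). Zfp57, which protects methylation at imprinted loci, fell from a mean of 80.6 ± 10.2 (SD) to 42 ± 5.51 CPM. The remaining members that fell were Klf2, a Krüppel-like factor, at -0.74, Tex19.1, a germline and placenta gene, at -0.84, and Spp1, the secreted protein osteopontin, at -0.51. These last calls were less stable. Klf2 lost its call without day 2 control replicate 3 (edgeR adjusted p = 0.0611), day 2.5 control replicate 2 (0.0626) or day 2.5 control replicate 3 (0.0574), or without both control libraries numbered 2 (0.148), and Spp1 and Tex19.1 did so on leaving out replicate 1 or 3 of day 2 or replicate 3 of day 2.5, at adjusted p of 0.0555 to 0.0652. Esrrb and Zfp57 also lost their calls when both control libraries numbered 2 were left out, at adjusted p of 0.0698 and 0.0785.

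Nanog, the homeobox factor of naive cells and of the posterior epiblast, went the other way. It was at 96.7, 140 and 105 CPM on day 2 and at 163, 209 and 175 CPM on day 2.5, a log2 fold change of 0.68 ± 0.14 (n = 3 a group, edgeR adjusted p = 0.0109). All day 2.5 libraries lay above all day 2 libraries, and on both days replicate 2 was the highest. Dppa3 (Stella), a maternal and germline factor that guards against demethylation, rose from 4.96, 4.72 and 4.88 CPM to 7.74, 7.11 and 6.99 CPM (0.59 ± 0.13, edgeR adjusted p = 0.00618). Among members that did not pass, Klf4 had a mean of 3.39 CPM on day 2 and 2.1 CPM on day 2.5 and Zfp42 (Rex1) 38.3 and 26.1 CPM. Tfcp2l1 had 17.6 and 14.2 CPM, Klf5 16.1 and 13.8 CPM, and Tbx3 4.05 and 5.53 CPM. All are transcription factors of the naive network, with edgeR adjusted p of 0.081 to 0.564 over these 5 genes. The call on Zfp42 depended on the fit: it was lower with DESeq2 (adjusted p = 0.0102), without day 2 control replicate 2 (edgeR, 0.0231), without both control libraries numbered 2 (0.0346) and without day 2 Trim33-deficient replicate 1 (0.0468), and Klf4 was lower without that last library (0.0422). Each fit with a block for the replicate number also called Zfp42 and Klf4 lower (edgeR adjusted p up to 0.00285 and 0.0434).

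**Figure D1:**
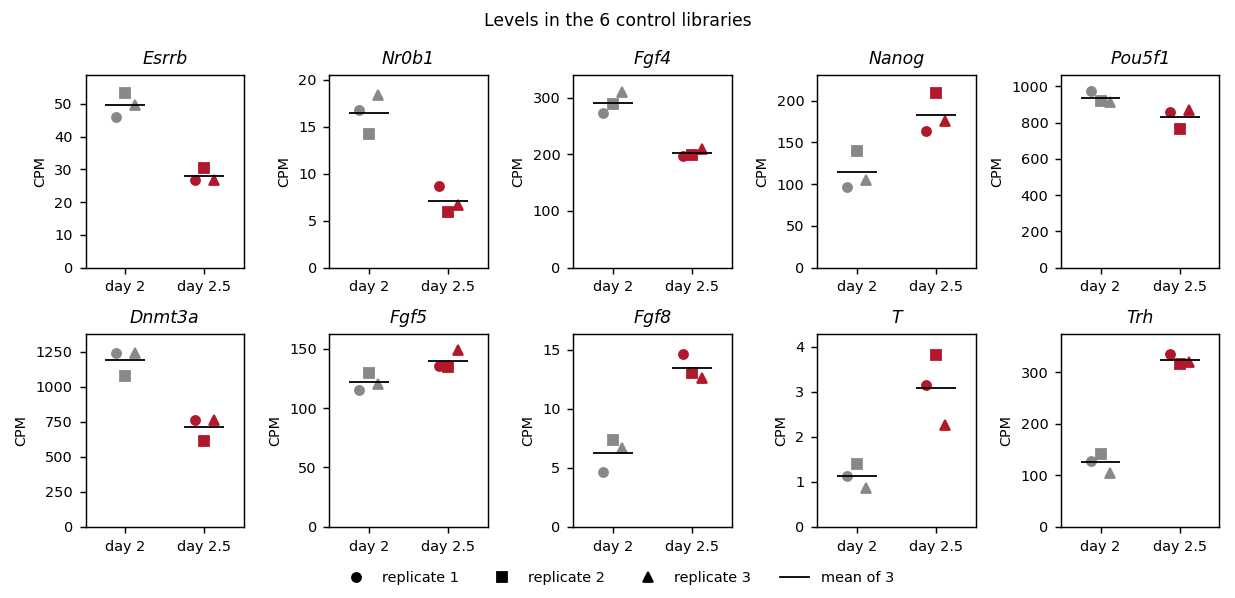
Levels in CPM (y axis from 0) of 10 genes in each control library on day 2 (grey) and day 2.5 (red), with a marker for each replicate number and a line at the mean of 3. Esrrb, Nr0b1, Fgf4 and Dnmt3a are lower on day 2.5 without overlap, Nanog, Fgf8, T and Trh are higher without overlap, and the y axes differ between genes.

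Of 16 general pluripotency genes, factors shared by naive and primed cells, 4 fell and none rose at the adjusted threshold, with a median of -0.19. Of all genes tested, 7.91% fell and 8.2% rose at that threshold. At an unadjusted p under 0.05 there were 8 lower and 1 higher, and DESeq2 called 7 lower and 0 higher. Shares of all genes are not given for the unadjusted and DESeq2 counts, here or for later lists. Sox2, the partner of Pou5f1 (Oct4), fell from 198, 191 and 205 CPM to 162, 163 and 164 CPM, and Utf1, a chromatin factor of pluripotent cells, from 447, 480 and 447 to 306, 344 and 344 CPM, both without overlap (log2 fold changes -0.28 ± 0.06 and -0.47 ± 0.07, edgeR adjusted p = 0.00498 and 0.000395). Pou5f1 itself was at 976, 919 and 915 CPM and then at 856, 766 and 872 CPM, so its groups did not overlap. Yet at -0.17 ± 0.06 it missed the threshold (edgeR adjusted p = 0.05 after rounding). DESeq2 gave 0.0339, and edgeR gave 0.0468 with RLE size factors or without ribosomal RNA rows and 0.0354 without day 2 Trim33-deficient replicate 1. Each fit with a block for the replicate number called it lower (edgeR adjusted p up to 0.0318). Foxd3 and Zscan10 also fell, but each lost its call without any of 4 single libraries (day 2 control replicates 1 and 3, day 2.5 control replicates 2 and 3), with adjusted p of 0.0586 to 0.127, and the list's count of falls then was 2. Without day 2 control replicate 2 it was 7. Without day 2 control replicate 1 or day 2.5 control replicate 2, 1 member rose.

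Markers of the primed epiblast showed no common rise: of 17, 2 rose, 4 fell and 11 did not pass, and the median was -0.12. The share called was 35.3%, against 16.1% of all genes. Fgf5, the classical primed marker, was already at 115, 130 and 120 CPM on day 2 and at 135, 135 and 149 CPM on day 2.5 (0.20 ± 0.09, edgeR adjusted p = 0.131). Fits with a block for the replicate number called it higher (edgeR adjusted p up to 0.0253). Otx2, a homeobox factor that drives the exit from naive pluripotency, had 152, 244 and 180 CPM and then 156, 227 and 175 CPM, so that the days overlapped throughout (adjusted p = 0.931). Its level was highest in replicate 2 on both days, and the sign of its estimate turned to 0.16 without day 2 control replicate 2. Pou3f1 (Oct6), an early primed factor, fell from 423, 328 and 414 CPM to 308, 240 and 272 CPM (-0.51 ± 0.10, edgeR adjusted p = 0.00596). Lef1, a Wnt effector listed here as a primed marker, fell from 96.1, 84.1 and 102 CPM to 56.4, 42.5 and 48.7 CPM (-0.93 ± 0.13, edgeR adjusted p = 0.000717). Grhl2, an epithelial transcription factor, fell by 0.35 on the log2 scale. The 2 members that rose were Cldn6, a tight junction protein, from 163, 196 and 161 CPM to 259, 273 and 273 CPM, and Lin28b, which blocks let-7 maturation, from a mean of 118 to 139 CPM.

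**Figure D2:**
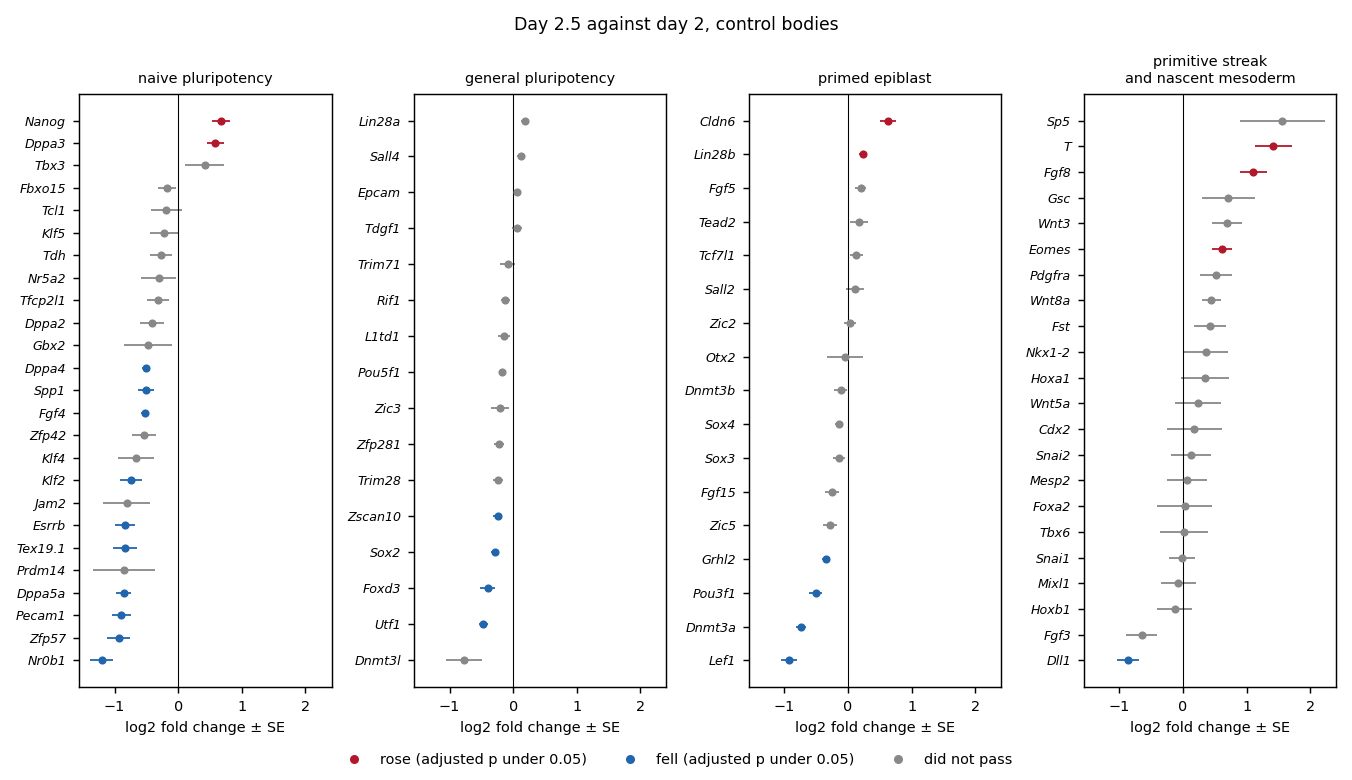
Log2 fold change from day 2 to day 2.5 in control bodies with its standard error (x axis) for every tested member of the naive, general, primed and streak lists, with red for genes that rose, blue for genes that fell and grey for genes that did not pass. Most naive genes lie left of 0 with Nanog and Dppa3 to the right, primed genes lie on both sides, and T and Fgf8 stand at the top of the streak panel beside Sp5, which did not pass.

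The de novo methyltransferases, which methylate the genome as cells leave the naive state, were at high levels on both days. Dnmt3a went from 1244, 1078 and 1242 CPM to 761, 615 and 759 CPM, a log2 fold change of -0.74 ± 0.07 (n = 3 a group, edgeR adjusted p = 2.87e-05). Dnmt3b was at 3694, 3198 and 3542 CPM and then at 3445, 2822 and 3367 CPM and did not pass (adjusted p = 0.479). Of 21 tested genes of DNA methylation and demethylation 9 fell and 1 (Dppa3) rose (47.6% called, against 16.1% of all genes), with a median of -0.23. The falls took in both arms of the system, with Dnmt3a and Uhrf1, which directs maintenance methylation (mean 497 to 424 CPM), and the dioxygenases Tet1 and Tet2. Mbd3, of the methyl-CpG-binding domain family (244 to 200 CPM), Gadd45a and Gadd45g, the remodeller Hells, and Zfp57 fell too. Gadd45g, a stress and growth arrest gene, went from 44.7, 31.5 and 47.8 CPM to 23.6, 19.7 and 21.3 CPM (-0.93 ± 0.16). Dnmt3l, the catalytically inactive partner, had 701, 443 and 695 CPM and then 475, 246 and 356 CPM, with replicate 2 lowest on both days. Its overlapping groups gave an adjusted p of 0.106 (0.0458 by DESeq2), and each fit with a block for the replicate number called it lower (edgeR, up to 0.0202).

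The tested genes of the primitive streak and nascent mesoderm together summed to 127 to 145 CPM on day 2 and 135 to 201 CPM on day 2.5. Of 28 listed, 22 passed the filter on low counts, and of those 3 rose and 1 fell (18.2% called, against 16.1% of all genes), with a median log2 fold change of 0.285. Fgf8, a ligand needed for cells to leave the streak, was at 4.64, 7.35 and 6.69 CPM on day 2 and at 14.6, 13.1 and 12.6 CPM on day 2.5, a mean 2.15 times as high (1.11 ± 0.21 on the log2 scale, n = 3 a group, edgeR adjusted p = 0.00257). T (Brachyury), the T-box factor that defines the streak, rose from 1.12, 1.39 and 0.866 CPM to 3.15, 3.82 and 2.27 CPM (1.42 ± 0.29, edgeR adjusted p = 0.00359). Neither gene's groups overlapped. Eomes, a T-box factor of streak and endoderm, rose from a mean of 14.5 to 22.1 CPM (0.61 ± 0.16), but its call was lost without day 2 control replicate 1 (edgeR adjusted p = 0.0661), day 2 control replicate 3 (0.0643) or day 2.5 control replicate 1 (0.0636). Dll1, a Notch ligand of presomitic mesoderm, fell from 32.7, 35.4 and 33.5 CPM to 21.5, 16.8 and 17.3 CPM (-0.87 ± 0.17, edgeR adjusted p = 0.00586, but 0.12 without both control libraries numbered 2). Wnt3 (mean 6.31 and 10.1 CPM) and Wnt8a (24.2 and 32.6 CPM), ligands of the posterior epiblast, did not pass, with edgeR adjusted p of 0.0667 and 0.0627. Both passed as higher with DESeq2 (0.0424 and 0.0344), without both control libraries numbered 2 (0.024 and 0.0164) and without day 2.5 control replicate 2, the library rich in Rn45s (0.0163 and 0.0153), and Wnt8a also without day 2 control replicate 1 (0.0259). In the first 3 of these fits 5 streak members rose. Fits with a block for the replicate number also called Wnt3 and Wnt8a higher (edgeR adjusted p up to 0.0317).

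Of 24 tested Nodal signalling components 16.7% were called, near the 16.1% of all genes. Among them 3 rose (the receptor Acvr2a, the common mediator Smad4 and the proprotein convertase Furin) and 1 fell (Skil, a repressor of SMAD activity). Nodal itself had 132, 105 and 124 CPM and then 155, 115 and 127 CPM, and the antagonist Lefty1 101, 130 and 118 CPM and then 102, 122 and 129 CPM, so that both overlapped between the days (edgeR adjusted p = 0.344 and 0.949). These 2 genes were chosen after their values were seen. Without day 2 control replicate 1, all 3 rising calls were lost, Furin's among them (edgeR adjusted p = 0.0532), and 1 other component rose. Without day 2 control replicate 3, 1 of the 3 remained, and Furin's call was lost (0.0611). Without day 2.5 control replicate 2, 3 components rose, but only 1 of them was among the 3 named. Skil lost its call without day 2.5 control replicate 3 (0.0575), and all 4 calls were lost with the 6 control libraries fitted alone. Among 16 tested Nodal and Activin targets 3 rose and 1, again Skil, fell, where 8.2% of all genes rose and 7.91% fell. With single control libraries left out, 2 to 4 targets rose and 0 to 1 fell. Trh had the largest change of the targets called. Trh, which encodes the thyrotropin-releasing hormone precursor and is also listed as a definitive endoderm marker, went from 129, 142 and 105 CPM to 335, 316 and 321 CPM, 2.59 times as high (1.37 ± 0.16, n = 3 a group, edgeR adjusted p = 0.000539). The other rising targets were Fgf8 and Eomes, counted above.

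Of 22 tested BMP pathway genes 7 rose and none fell, with a median of 0.25, at a background of 8.2% rising among all genes. At an unadjusted p under 0.05 there were 8 higher and 1 lower, and DESeq2 called 7 higher and 0 lower. The receptor Bmpr1a went from 130, 146 and 136 CPM to 166, 177 and 177 CPM (0.34 ± 0.05, edgeR adjusted p = 0.000673). Smad1, a transducer of BMP signals, went from 22.2, 21.7 and 21.6 CPM to 30.3, 29.4 and 29 CPM (0.44 ± 0.07, edgeR adjusted p = 0.00093), and its partner Smad5 from a mean of 54.8 to 69.4 CPM. Among ligands, Bmp7 rose from 2.8, 3.33 and 1.97 CPM to 5.38, 9.59 and 4.79 CPM (1.25 ± 0.25). The receptor Bmpr1b and the target genes Id1 and Id3, which encode inhibitors of basic helix-loop-helix factors, completed the 7; they were named after their values were seen. Their changes of 0.95, 0.49 and 0.49 were the less stable ones. All lost their calls without day 2 control replicate 3 (edgeR adjusted p = 0.083, 0.112 and 0.0875) or day 2.5 control replicate 3 (0.0588, 0.147 and 0.0638), and Id1 and Id3 also without day 2 control replicate 2 (0.0902 and 0.0621) or day 2.5 control replicate 1 (0.0701 and 0.0695), and Id1 without day 2.5 Trim33-deficient replicate 2 (0.0501). Without either library numbered 3, 4 members rose, and 1 fell without day 2 control replicate 2 or day 2.5 control replicate 1.

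In the Wnt list 7 of 30 tested genes rose and 1, Lef1, fell (26.7% called, against 16.1% of all genes), with a median of 0.20. Axin2, a feedback inhibitor and common readout of Wnt activity, went from 23.5, 22.5 and 21.3 CPM to 38.3, 28.7 and 31.7 CPM (0.55 ± 0.10, edgeR adjusted p = 0.00177). The secreted Wnt antagonist Sfrp2 rose from a mean of 49 to 70.4 CPM, and Sfrp1, of the same family, by 0.33 ± 0.07 on the log2 scale. Sp8, a zinc-finger target of Wnt, was at 5.37, 3.02 and 5.51 CPM and then at 13.1, 5.95 and 8.63 CPM, with the highest value in day 2.5 control replicate 1, and without that library its adjusted p was 0.0682. Without day 2 control replicate 3, 4 genes of the list rose. FGF genes split evenly, with 4 of 28 higher and 4 lower (28.6% called). The receptor Fgfr1 (mean 199 to 232 CPM) and the receptor regulator Il17rd (Sef, 111 to 144 CPM) rose with Fgf8 and Fgfbp1, while the ERK-induced factor Etv5 (401 to 349 CPM), Etv1, Fgfr4 and Fgf4 fell.

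Among the lists, the largest share of falling genes was in the integrated stress response. The integrated stress response raises Atf4 translation and, through it, genes of amino acid supply. Of 32 tested members 18 fell and none rose, with a median log2 fold change of -0.355 (7.91% of all genes fell). At an unadjusted p under 0.05 there were 20 lower and 1 higher, and DESeq2 called 19 lower and 0 higher. Atf4, the central factor, went from 292, 265 and 314 CPM to 226, 209 and 196 CPM (-0.46 ± 0.06, edgeR adjusted p = 0.000233). Nupr1, a stress-induced chromatin protein, fell from 6.81, 10.1 and 9.21 CPM to 3.28, 3.02 and 3.09 CPM (-1.47 ± 0.20), and Chac1, which degrades glutathione, from 14.5, 8.89 and 18 CPM to 6.23, 4.18 and 4.66 CPM (-1.44 ± 0.23, named after its values were seen). The serine and one-carbon enzyme Shmt2 had 158, 180 and 171 CPM and then 119, 125 and 120 CPM (-0.49 ± 0.05, edgeR adjusted p = 2.9e-05), and the alanyl-tRNA synthetase Aars a mean of 557 and then 408 CPM. In all 5 genes the days did not overlap. Asns, Psat1, Psph, Mthfd2, the transporters Slc3a2, Slc7a5 and Slc7a1, the synthetases Gars, Sars and Nars, Trib3, Stc2 and Herpud1 fell as well, and 14 to 20 members did so when single control libraries were left out. Without day 2.5 control replicate 2, 1 member rose.

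Cholesterol is made from acetyl-CoA through mevalonate and squalene, and its genes are driven together by SREBP factors. Of 22 tested genes 9 fell and none rose (40.9% called, against 16.1% of all genes), with a median of -0.22, and 20 estimates were below 0. At an unadjusted p under 0.05, 17 were lower and 0 higher, and DESeq2 called 9 lower and 0 higher. Fdft1 (squalene synthase) was at 99.9, 120 and 102 CPM on day 2 and at 70.2, 74.7 and 77 CPM on day 2.5 (-0.54 ± 0.07, n = 3 a group, edgeR adjusted p = 0.000173). Lss (lanosterol synthase), which closes the sterol rings, went from 122, 129 and 114 CPM to 89.1, 79 and 92.4 CPM (-0.48 ± 0.07, edgeR adjusted p = 0.00034). The days did not overlap in either gene. Mvd, Fdps, Cyp51, Msmo1, Dhcr7, Acat2 and the regulator Insig1 fell as well, and 6 to 10 genes of the list fell when single control libraries were left out.

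**Figure D3:**
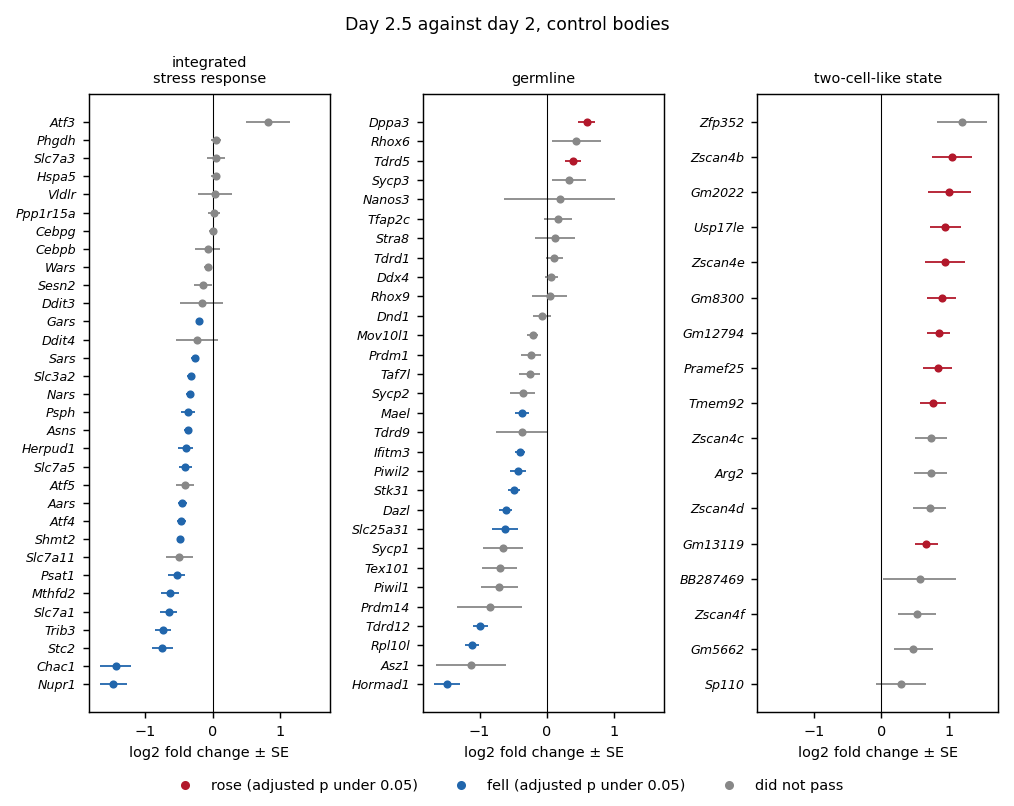
Log2 fold change from day 2 to day 2.5 in control bodies with its standard error (x axis) for every tested member of the integrated stress response, germline and 2-cell-like lists, colored as rose (red), fell (blue) or did not pass (grey). Nupr1 and Chac1 lie farthest left in their panel and Hormad1 in the germline panel, and all 17 genes of the 2-cell-like panel lie right of 0 with wide errors.

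Genes of the 2-cell-like state, a rare condition in which stem cells briefly express genes of the 2-cell embryo, were higher. Of 17 tested, 9 rose and none fell (52.9% called, against 16.1% of all genes), and all 17 estimates were above 0 with a median of 0.76. DESeq2 called 12 higher and 0 lower, and at an unadjusted p under 0.05 there were 13 higher and 0 lower. Gm12794, a member of the Prame family, was at 13.1, 9.36 and 11.9 CPM and then at 24.5, 15 and 21.7 CPM (0.85 ± 0.17, n = 3 a group, edgeR adjusted p = 0.0047). Gm8300, a further gene of the state, had 5.37, 3.71 and 4.49 CPM and then 11.2, 5.95 and 7.74 CPM. In both genes replicate 2 was the lowest and day 2.5 control replicate 1 the highest. That order held for the list: its summed level was 107, 66.7 and 104 CPM on day 2 and 204, 126 and 155 CPM on day 2.5. The count depended on it, since 3 members rose without day 2.5 control replicate 1 and 5 without day 2 control replicate 3. Pramef25 and Tmem92 lost their calls without day 2.5 control replicate 1 (edgeR adjusted p = 0.0533 and 0.0558), and Tmem92 and Gm8300 without day 2 control replicate 3 (0.0529 and 0.0502). Several members, such as the Zscan4 genes, Usp17le and the Prame genes, have near-identical copies between which reads cannot be assigned with certainty.

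Among germline genes, many of which naive cells express while methylation is low, 9 of 30 tested fell and 2 rose. Of the list 36.7% was called, against 16.1% of all genes, and the median was -0.37. Hormad1, a meiotic chromosome axis protein, went from 6.97, 8.58 and 7.16 CPM to 2.3, 3.2 and 2.71 CPM (-1.48 ± 0.20, n = 3 a group, edgeR adjusted p = 0.000173). Rpl10l, a testis copy of the ribosomal protein gene Rpl10, fell from 49, 41.5 and 48.6 CPM to 23.6, 18.7 and 21.4 CPM (-1.12 ± 0.10), with the copy as a caution on its reads. Tdrd12, of the piRNA pathway, went from 46.8, 61.3 and 61.9 CPM to 24.7, 29.9 and 31.1 CPM, and Dazl, an RNA-binding protein of germ cells, from 19.5, 19.6 and 19.5 CPM to 12.1, 12.6 and 13.5 CPM. The 4 genes had no overlap between the days. Stk31, a kinase-like germline gene, fell from a mean of 25.9 to 18.4 CPM. Dppa3 and Tdrd5 rose. Without any 1 of day 2 control replicates 1 and 3, day 2.5 control replicates 2 and 3 or day 2 Trim33-deficient replicate 2, 1 germline gene rose in place of 2.

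Matrix, adhesion and epithelial genes rose in part. Of 25 matrix and adhesion genes 8 rose and 2 fell (40.0% called, against 16.1% of all genes), with a median of 0.08. The basement membrane genes Col4a1, Col4a2 and Lama1, also listed for primitive and visceral endoderm, went from means of 41.1, 8.05 and 14.9 CPM to 61.5, 13.7 and 25 CPM, and the laminin and collagen receptor subunit Itgb1 from 205 to 254 CPM. Fn1 (fibronectin) fell from 457, 487 and 445 CPM to 309, 342 and 264 CPM (-0.60 ± 0.11, n = 3 a group, edgeR adjusted p = 0.00509), as did Nid1. In place of 2, 1 member fell on leaving out control replicate 2 or 3 of day 2 or 1 or 3 of day 2.5, or Trim33-deficient replicate 2 of day 2 or 1, 2 or 3 of day 2.5. Of 23 epithelial genes 6 rose and 1 fell (30.4% called). Krt8, a simple keratin, rose from a mean of 9.17 to 15.3 CPM, the tight junction protein Ocln from 16.2 to 23.2 CPM, the desmosome protein Dsp from 13.5 to 19.5 CPM and the membrane protease St14 from 83.6 to 106 CPM. Cdh1 (E-cadherin), chosen after its values were seen, had 945, 960 and 911 CPM and then 971, 1037 and 991 CPM (adjusted p = 0.226). Of 15 tested mesenchymal genes 2 rose and 2 fell, Fn1 among the latter (26.7% called), with a median of 0.02. Ctgf and Cyr61, matricellular proteins and common targets of YAP, rose from 39.1, 31 and 36.5 CPM to 64.3, 65.7 and 65 CPM and from 7.93, 9.36 and 8.73 CPM to 20.2, 35.7 and 20.1 CPM. With Jun and Klf6 they made up the 4 of 22 early response genes that rose, and 1 fell (22.7% called, against 16.1% of all genes).

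Of 31 Polycomb and histone H3K27 genes 6 fell and 2 rose (25.8% called), with a median of -0.10. Mtf2, a subunit that brings Polycomb repressive complex 2 to CpG islands, went from 370, 378 and 389 CPM to 294, 289 and 311 CPM (-0.35 ± 0.05, n = 3 a group, edgeR adjusted p = 0.000198). Of 33 imprinted genes 7 fell and 5 rose (36.4% called, against 16.1% of all genes). Cdkn1c (p57), a maternally expressed inhibitor of cyclin-dependent kinases, fell from 37, 26.3 and 33.1 CPM to 19.8, 15.9 and 18 CPM (-0.84 ± 0.13, edgeR adjusted p = 0.000539). Both genes were lower in every day 2.5 library. Without day 2 control replicate 3 or day 2.5 control replicate 3, 3 Polycomb genes fell and 1 rose, and 1 Polycomb gene rose without day 2 control replicate 1. The same count of 1 came on leaving out, among deficient libraries, replicates 2 or 3 (day 2) or 1 or 2 (day 2.5). Imprinted counts moved as well: 4 fell and 1 rose without day 2 control replicate 3, 3 fell and 3 rose without day 2.5 control replicate 3, 4 fell without day 2.5 control replicate 2, and 3 rose without day 2 control replicate 1.

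Markers of other lineages were checked as whole lists, against 8.2% of all genes that rose and 7.91% that fell. The shares called were 15.8% in neuroectoderm, 18.2% in definitive endoderm, 21.1% in primitive and visceral endoderm, 17.6% in trophoblast and 21.4% in blood, beside 16.1% of all genes. In neuroectoderm 3 of 19 tested genes rose and none fell (1 lower at an unadjusted p under 0.05, 0 by DESeq2). These were Nes, an intermediate filament of neural progenitors (82.2, 65.2 and 59.6 CPM, then 128, 113 and 111 CPM), Zfp521, a zinc-finger factor of early neural cells (1.89 to 5.65 CPM), and Map2, and the summed level of the list ran from 362 to 402 CPM on day 2 and from 414 to 449 CPM on day 2.5. Definitive endoderm had 2 of 11 higher, Trh and Gata4, and primitive and visceral endoderm 4 of 19, while the defining visceral genes Afp, Ttr and Apoa1 did not pass the filter. Trophoblast markers had 2 of 17 higher and 1 lower, with summed levels of 119 to 174 CPM and then 139 to 210 CPM. Of 14 hemangioblast and blood genes 3 fell (Tal1, Lmo2 and Pecam1), and Kdr, Cdh5 and the embryonic globins did not pass the filter. Precardiac mesoderm had 1 of 11 tested genes higher, Gata4 (9.09% called), and 0 to 1 when single control libraries were left out. Fibroblast and feeder markers, at summed levels of 125 to 160 CPM and then 141 to 170 CPM, had 2 of 11 higher and 2 lower. Their share called, 36.4%, was above the 16.1% of all genes. The part of these cell types in the other results was not tested. Of 38 Hox genes, which pattern the later embryo, 9 passed the filter and none changed (1 lower at an unadjusted p under 0.05, 0 by DESeq2). Single libraries moved these small counts. Leaving out replicate 2 of day 2, 2 neuroectoderm genes fell, and 1 blood gene fell and 1 rose. Leaving out replicate 3 of day 2, 1 trophoblast marker and 0 fibroblast markers rose and 1 blood gene fell. Leaving out replicate 3 of day 2.5, 1 definitive endoderm gene and 1 fibroblast marker rose and 0 trophoblast markers fell. Trophoblast had 1 higher and 2 lower without replicate 1 of day 2 and 1 higher without replicate 1 of day 2.5, and fibroblast markers 1 higher without replicate 1 or 2 of day 2.5. Of the Trim33-deficient libraries, which share the fit, leaving out replicate 1 of day 2 gave 2 lower trophoblast markers, and leaving out any but replicate 3 of day 2.5 gave 1 higher fibroblast marker.

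In the signalling, metabolic and growth lists not described so far, 7.69 to 25% of the members tested were called, against 16.1% of all genes, and ranges are given for leaving out each control library. Of 20 LIF and STAT3 genes 4 fell (3 to 4) and 1 rose (1 to 2). Among 54 nuclear genes of oxidative phosphorylation 7 fell (3 to 5) and 1 rose (0 to 1), all with small changes around a median of -0.06. Of 45 cell cycle genes 8 fell (4 to 11), among them Pcna, Mcm2 and Cdt1 of DNA replication, and none rose (0 to 1, with 1 at an unadjusted p under 0.05 and 0 by DESeq2). Hypoxia and glycolysis genes had 2 of 39 lower (1 to 6) and 1 higher (0 to 5), and it was this list that was high in both libraries numbered 2. Of 30 p53 and DNA damage genes 4 rose (1 to 6) and 2 fell (2 to 5). In the interferon list 4 of 17 fell (2 to 6) and none rose (0 at an unadjusted p under 0.05 and by DESeq2). For oxidative phosphorylation the lowest count of falls came without replicate 1 or 3 of day 2 (and 4 fell without day 2.5 Trim33-deficient replicate 2), and for the cell cycle list without replicate 3 of either day, with 5 falls without replicate 2 of day 2.5. For p53 genes 1 rose without replicate 3 of day 2, 2 rose without replicate 2 of day 2 or replicate 3 of day 2.5, and 5 fell without replicate 2 of day 2. Hypoxia genes had 6 falls without replicate 2 of day 2.5 and 5 rises without replicate 2 of day 2, and interferon genes 2 falls without replicate 2 or 3 of day 2 or replicate 1 or 3 of day 2.5, and also 2 without any Trim33-deficient library but replicate 1 of day 2.5.

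**Figure D4:**
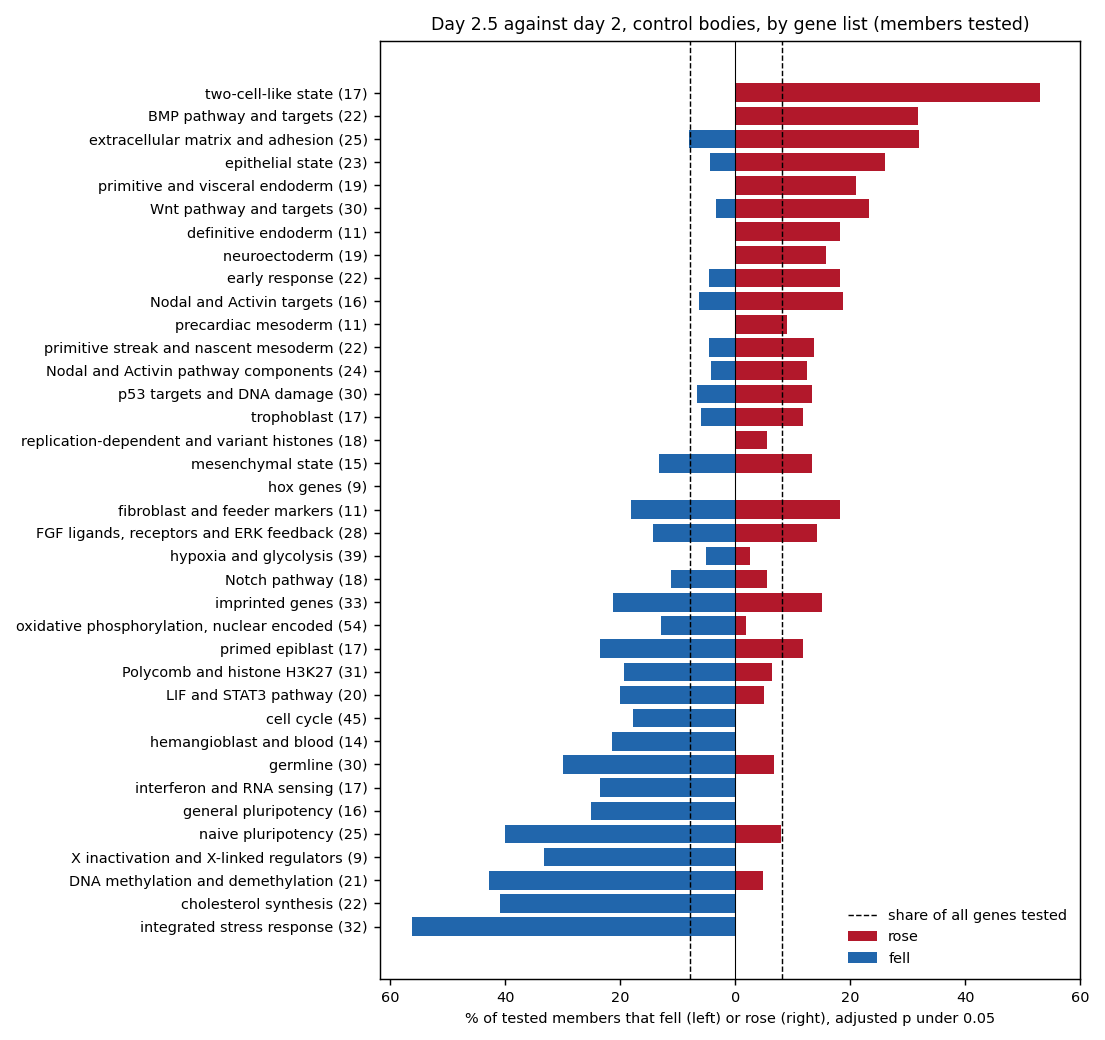
Percent of the tested members of each gene list (number tested in brackets) that fell (left, blue) or rose (right, red) from day 2 to day 2.5 in control bodies, with dashed lines at the shares of all genes tested, 7.91% and 8.2%. The 2-cell-like list has the longest bar to the right and the integrated stress response and DNA methylation lists the longest to the left. Some genes are in more than one list.

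Among single genes outside these lists, Ppp4r4, a regulatory subunit of protein phosphatase 4, rose from 6.01, 5.26 and 4.49 CPM to 19.4, 19.5 and 17.3 CPM (1.83 ± 0.21, n = 3 a group, edgeR adjusted p = 0.000116). Apba2, a neuronal adaptor protein, went from 3.2, 3.4 and 2.6 CPM to 10.3, 10.5 and 8.56 CPM (1.67 ± 0.20), Dok5, an adaptor of receptor tyrosine kinases, from a mean of 1.66 to 5.68 CPM, and the zinc-finger and homeobox factor Zhx2 from 1.72 to 5.54 CPM. In all 4 the days did not overlap, and the fitted levels on day 2.5 were 3.16 to 3.56 times those on day 2. Slc4a5, a bicarbonate transporter, fell from 56, 51.3 and 57.4 CPM to 28.5, 27.2 and 24.3 CPM (-1.04 ± 0.08, edgeR adjusted p = 2.66e-06), and Inpp5d (SHIP1), an inositol phosphatase, from 45.8, 43.1 and 47.8 CPM to 23.1, 18.1 and 20.7 CPM (-1.13 ± 0.12). Lower in level were the falls of 4930591A17Rik (6.35 to 1.52 CPM), Wdr95 (4.78 to 1.33 CPM), Accsl (2.94 to 0.66 CPM) and Smtnl1 (3.86 to 0.951 CPM).

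The same 12 hours were compared with those in the Trim33-deficient bodies by the interaction of time and genotype, here the change in controls minus the change in deficient bodies. It passed for 575 genes (4.01% of those tested), positive for 178 and negative for 397. Of the genes that changed in controls, 330 were among them: 106 rose with a more positive change in controls, and 198 fell with a more negative one. The same control libraries enter both tests, so a shared sign is partly built in and is not independent evidence. Esrrb, which fell in controls, had 137, 109 and 95 CPM and then 152, 130 and 110 CPM in deficient bodies, an interaction of -1.04 ± 0.20 (edgeR adjusted p = 0.0213). Fgf8 had 3.18, 6.19 and 5.59 CPM and then 3.86, 3.22 and 5.3 CPM in deficient bodies (1.41 ± 0.32, edgeR adjusted p = 0.0252), and T 1.06, 1.63 and 1.23 CPM and then 0.727, 1.1 and 1.37 CPM (1.72 ± 0.43, edgeR adjusted p = 0.0373). Trh showed the same sign (1.15 ± 0.23). Fbxo15, an F-box gene of stem cells that did not pass in controls, was at 71.5, 65.1 and 52.9 CPM and then at 150, 126 and 135 CPM in deficient bodies (-1.30 ± 0.19, edgeR adjusted p = 0.0069). Dll1, which fell in controls, went from 67.5, 54.4 and 61 CPM to 117, 99.5 and 72.9 CPM in deficient bodies (-1.53 ± 0.23). Moxd1, a monooxygenase-like gene, Jph3, a junctophilin, and Fndc3c1 rose in controls (means 8.97 to 16.8, 8.08 to 15.3 and 37.7 to 67.8 CPM), where deficient bodies had 8.9 and 8.15, 7.4 and 7.37, and 29.2 and 30.5 CPM. For Nanog the interaction was 0.68 ± 0.21 and missed the threshold (adjusted p = 0.0972).

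In the 2-cell-like list, 4 of the genes described rose in controls and had a negative interaction. Gm8300 went from 6.05, 4.44 and 3.81 CPM to 28.9, 31.1 and 30.3 CPM in deficient bodies (-1.81 ± 0.30, edgeR adjusted p = 0.0069). Atf4 and Shmt2 of the stress response did not pass the interaction (-0.31 and -0.02, adjusted p = 0.0573 and 0.926). Single libraries of either genotype moved this comparison. Leaving out replicate 1, 2 or 3 of the day 2 controls, it passed for 283, 1217 or 119 genes, and leaving out replicate 2 or 3 of the day 2.5 controls for 379 or 168. Day 2 Trim33-deficient replicate 1 stood apart with 7.87% of its counts in Rn45s, against 0.636 to 1.67% in the other 5 deficient libraries, and without it 945 genes passed. Leaving out deficient replicate 2 or 3 of day 2, the interaction passed for 137 or 129 genes, and leaving out deficient replicate 1 or 2 of day 2.5 for 175 or 245. Of the 44 genes described here that passed, 13 did so in every alternative, among them Fbxo15, Dll1 and Gm8300. Esrrb and Fgf8 missed the threshold without day 2 control replicate 3 or day 2.5 control replicate 3, T without day 2 control replicate 1 or 3 or day 2.5 control replicate 2, and Trh without any of those 4. Among deficient libraries, Esrrb, Fgf8, T and Trh missed it without day 2 replicate 2, Fgf8, T and Trh also without day 2 replicate 3 or day 2.5 replicate 2, and Fgf8 and T without day 2.5 replicate 1.

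**Figure D5:**
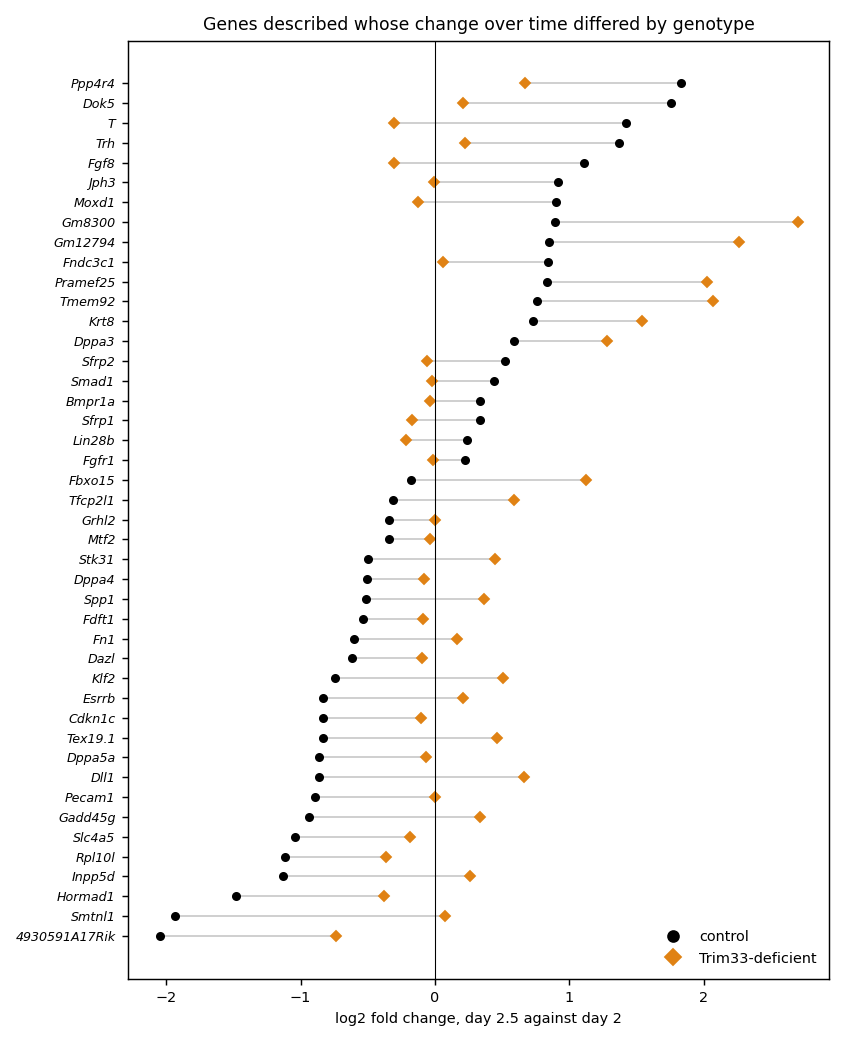
Log2 fold change from day 2 to day 2.5 (x axis) in control bodies (black circles) and Trim33-deficient bodies (orange diamonds) for the 44 genes described whose change over time differed between genotypes, ordered by the change in controls. T and Fgf8 lie right of 0 in controls and left of it in deficient bodies, and Gm8300, Gm12794, Pramef25 and Tmem92 lie farther right in deficient bodies.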

How the data were processed

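RNA was measured by sequencing total RNA (Qiagen RNeasy, Illumina, per the labels' protocols). The authors deposited raw counts of reads per gene, 1 file per library, made with STAR and HTSeq on mm9, with DESeq also named, per the submitters' processing notes. Tool versions, annotation, strand setting and the handling of multi-mapping reads have no entry in the sources used here, so near-identical or overlapping genes are uncertain. Of all reads counted in the control files, 55.9 to 60.5% fell in no feature. These and the other closing rows (5 per file) were left out. In 1 Trim33-deficient library, 27 gene names turned into dates were restored by row position.

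Of 24015 genes, 19581 had a count and 14356 passed filterByExpr. edgeR 4.0.16 (R 4.3.3, limma 3.58.1) was fitted with TMM factors and a robust quasi-likelihood model of 4 group means in all 12 libraries (8 residual degrees of freedom), with Benjamini-Hochberg adjustment over all genes tested. The standard error is the log2 fold change divided by the root of its F statistic. CPM were computed from the deposited counts. Floors cover counting error only, while the standard errors also take in the spread among libraries in the fit. Deviations of lists are means of log2(CPM + 0.25). Sequences are from RefSeq.

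Replicate numbers were not taken as pairs in the main fit. Same-numbered control libraries had correlations of 0.365, 0.451 and 0.032 in their deviations from the group means. These values left the pairing open, and fits with a replicate block are given below. No 2 libraries of a control group agreed within sampling noise (chi-square per degree of freedom on raw counts, 2.76 to 138). The values of 134 and 138 were for pairs with day 2.5 control replicate 2, rich in Rn45s, and the Rn45s row was kept. The other pairs gave 2.76 to 10.1. Members and lists were chosen with earlier results of these data known. The rule for named genes (every member of the naive, general, primed and streak lists; up to 4 of each other list each way by smallest adjusted p; the 15 largest rises and falls without overlap and with a mean CPM of at least 1; the 8 smallest adjusted p of the interaction each way; Trim33 and Rn45s) returned 237 genes, of which 176 passed and 114 kept their call in every alternative. The 108 genes described were picked from these after their values and stability were seen, with 7 outside the rule (Id1, Id3, Bmpr1b, Chac1, Nodal, Lefty1 and Cdh1). Some genes are not reported here and are left out of the lists. The self-test on simulated counts was passed. It drew the libraries independently, without the effect shared by both control libraries numbered 2, so it cannot speak to that effect. Alternatives were RLE and upper-quartile factors, 2 further filters, DESeq2 1.42.0, the control libraries alone, replicate blocks, no ribosomal RNA rows, and leaving out libraries of either genotype.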

Additional observations from a re-analysis of the deposited data

Results flagged for a closer look

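The change from day 2 to day 2.5 differed between control and Trim33-deficient bodies for 575 genes by the test of the difference itself, the interaction of time and genotype (edgeR quasi-likelihood test, Benjamini-Hochberg adjusted p under 0.05). Values in brackets are the log2 fold change in controls minus that in deficient bodies for the genes described in the report that met this test.

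Genes that fell in controls and fell less, or did not fall, in deficient bodies were led by Smtnl1 (-2.01), Dll1 (-1.53), Inpp5d (-1.40), 4930591A17Rik (-1.31), Tex19.1 (-1.30), Gadd45g (-1.27), Klf2 (-1.25), Hormad1 (-1.11), Esrrb (-1.04), Stk31 (-0.94), Pecam1 (-0.90) and Spp1 (-0.88). Smaller differences of the same sign were those of Slc4a5 (-0.86), Dppa5a (-0.79), Fn1 (-0.76), Rpl10l (-0.76), Cdkn1c (-0.73), Dazl (-0.52), Fdft1 (-0.45), Dppa4 (-0.42), Grhl2 (-0.34) and Mtf2 (-0.31).

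Genes that rose in controls, with a more positive change there, were Fgfr1 (0.24), Bmpr1a (0.38), Lin28b (0.46), Smad1 (0.46), Sfrp1 (0.51), Sfrp2 (0.58), Fndc3c1 (0.79), Jph3 (0.93), Moxd1 (1.03), Trh (1.15), Ppp4r4 (1.16), Fgf8 (1.41), Dok5 (1.55) and T (1.72). T and Fgf8 had negative estimates in deficient bodies, -0.30 and -0.31. Genes that rose in controls and rose more in deficient bodies were Gm8300 (-1.81), Gm12794 (-1.42), Tmem92 (-1.30), Pramef25 (-1.19), Krt8 (-0.82) and Dppa3 (-0.69), mostly genes of the 2-cell-like list. The genes that met the test without passing in controls were Fbxo15 (-1.30) and Tfcp2l1 (-0.90), both of the naive list.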

How the results depend on the processing

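Of the 91 described genes called over time in controls, 73 kept their direction and call in every alternative, 18 lost the call in at least 1 and none reversed. Single control libraries mattered most: 12 calls were lost without day 2 control replicate 3 and 9 without day 2.5 control replicate 3. When each of the 12 libraries was left out in turn (the 6 Trim33-deficient ones as an alternative chosen after seeing the data), 606 to 1227 genes rose, 629 to 1181 fell, 89 to 150 rose and 103 to 168 fell past 2-fold, 7 to 12 naive genes fell, 2 primed genes rose each time, 2 to 5 streak genes rose, and 119 to 1217 genes passed the interaction. With the 6 control libraries alone, 720 genes rose, 664 fell and 92 rose past 2-fold. Of 1704 counts of list members under the alternatives, 268 moved by more than 1.5 times.

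The correlations given with the processing did not settle whether the replicate numbers pair the libraries. Day 2 control replicates 1 and 2 went best with the day 2.5 control library of the same number (0.365 and 0.451). Day 2 control replicate 3 went best with day 2.5 control replicate 1 (0.175, against 0.032 with replicate 3). With a replicate block within genotype, 2109 genes rose, 2093 fell, 16 naive genes fell, 4 primed and 7 streak genes rose, and 2524 passed the interaction. With the replicate block in the 6 control libraries alone, 2319 rose, 2322 fell, 16 naive genes fell, and 5 primed and 6 streak genes rose. With a replicate block shared by both genotypes, an alternative chosen after seeing the data, 5 streak genes rose and 1169 genes passed the interaction. Among genes not called, all 3 blocks called Zfp42, Klf4, Pou5f1 and Dnmt3l lower and Fgf5, Wnt3 and Wnt8a higher (edgeR adjusted p up to 0.0434). Both blocks within genotype called Tfcp2l1, Dnmt3b and Trim33 lower and Nodal higher (up to 0.0255). The block in the control libraries alone also called Tbx3 and Cdh1 higher (0.0344 and 0.043). Klf2 lost its call with the block in the control libraries alone (0.0526), and 8 or 10 Nodal components rose with the blocks within genotype. DESeq2, the fit without both control libraries numbered 2 and the fit without the 2 libraries rich in ribosomal RNA each called 5 streak genes as risen, and without both control libraries numbered 2 the interaction passed for 1088 genes. Otx2, which was not called, ran from -0.21 to 0.16 around -0.05 when single libraries were left out, and Lefty1, also not called, from -0.074 to 0.11 around 0.02, and was at -0.0085 without the 2 libraries rich in ribosomal RNA. The cause of these shifts was not tested. The untested members of the streak, Hox and blood lists lay under the filter on low counts, and whether by depth or by absence of expression was not tested.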
